A study of Homo sapiens with 12 samples.

Results

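The syndecans (SDC1 to SDC4) and the glypicans (GPC1 to GPC6) are the 10 human genes examined here, of 25718 genes in the count tables. They were chosen by name as complete gene families. The families were taken up because SDC1 was among the genes with much lower counts under doxycycline in these same samples, so the doxycycline values of SDC1 are given as a description and without a test. All samples were cultures of H9, an established human embryonic stem cell line kept on mouse feeder cells, that had been transduced with a lentiviral vector at a multiplicity of infection of 50 and patterned towards ventral midbrain neural progenitors. One vector carried miR-10a and the other miR-10b, each with a GFP reporter and switched on by doxycycline. Doxycycline was present from day 11 to day 14 in the treated cultures, control cultures held the same vector without it, and RNA was taken at day 14. There were 4 groups of 3 replicates each: miR-10a doxycycline, miR-10a control, miR-10b doxycycline and miR-10b control. No doxycycline-treated culture without a miR-10 vector was among these samples, so the drug and the microRNA cannot be told apart. Each vector was in its own transduced cultures, so a difference between vectors and a difference between those cultures cannot be told apart either.

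Syndecans and glypicans are the main heparan sulfate proteoglycans of the cell surface. Syndecans cross the membrane and have a short cytoplasmic tail that binds cytoskeletal and signalling proteins, whereas glypicans are held by a lipid anchor. Their long sulfated sugar chains bind FGF, WNT, hedgehog and BMP ligands, which are the signals that pattern the neural tube. A microRNA pairs with messenger RNA mainly through its seed, and a perfect match to the seed in a 3′UTR is the usual mark of a candidate target. miR-10a and miR-10b share the same seed.

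The mature sequence of hsa-miR-10a-5p is shown because its seed sets the letters that were searched for, and the 30 bases around the SDC1 site are shown because they hold the longest match in any of the 10 genes. Both are written 5′ to 3′. Capitals mark the seed (bases 2 to 8) in the microRNA and the 8mer match in the 3′UTR.
hsa-miR-10a-5p: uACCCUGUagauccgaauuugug
SDC1 3′UTR: tcatgtgtgcaACAGGGTAtggactatctg
The microRNA comes from RefSeq (GRCh38.p14), and the SDC1 bases were read from GRCh37 at chr2:20401759-20401788 on the minus strand. The letters searched were ACAGGGTA (8mer), ACAGGGT (7mer-m8), CAGGGTA (7mer-A1) and CAGGGT (6mer), on the transcript strand only, and a shorter match inside a longer one was not counted again.

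SDC1 was the only 1 of the 10 genes with an 8mer match, and no member had a 7mer. Its longest annotated 3′UTR has 1972 bases, counted from the first base of the stop codon, and holds the 8mer at position 753, with 2 further 6mers. In 5 members the matches were 6mers alone: SDC3, SDC4 and GPC6 had 1 each, GPC4 had 2 and GPC1 had 3. SDC2, GPC2, GPC3 and GPC5 had no match in these windows. For comparison, the best match was an 8mer in 2.73% of the 9277 tested genes whose 3′UTR is annotated, a 7mer-m8 in 14.6%, a 7mer-A1 in 5.13% and a 6mer in 21.3%, and 56.2% had no match. A match is a description of the letters and not evidence that the site is used.

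**Figure D1:**
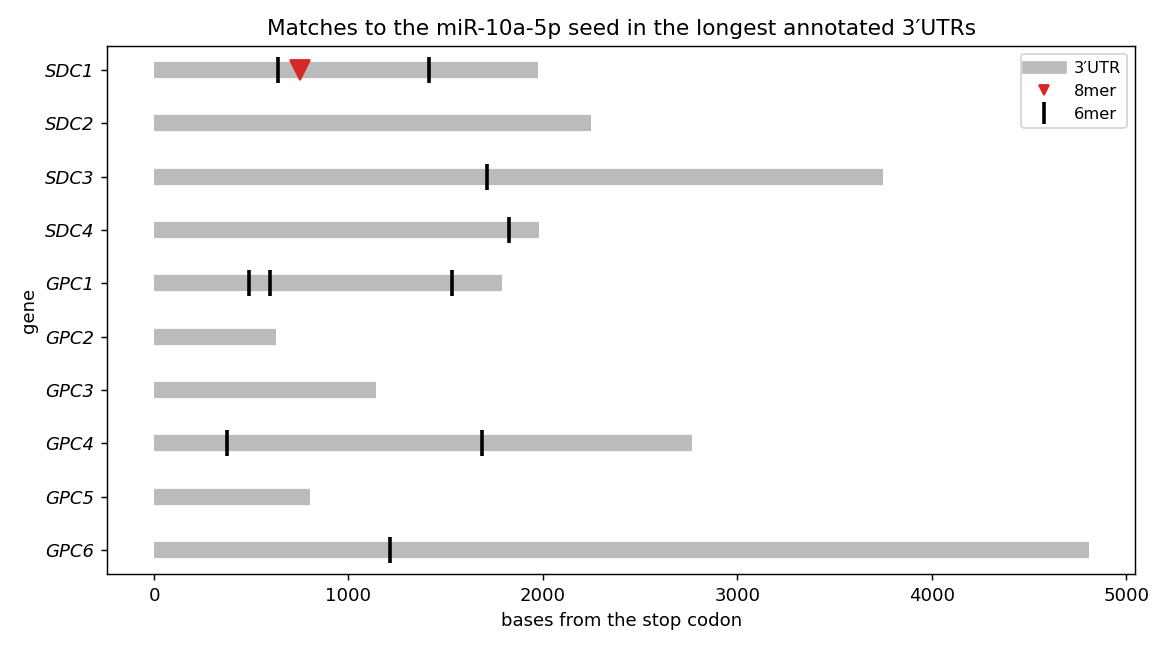
Longest annotated 3′UTR of each gene (grey bars, bases counted from the first base of the stop codon on the horizontal axis) with its matches to the seed of miR-10a-5p. SDC1 alone carries an 8mer (red triangle, at 753 of 1972 bases), and black ticks are 6mers.

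The count of SDC1 may cover only a small part of the gene. The tables list 2 SDC1 transcripts, and all counts lie on NM_001006946, while NM_002997 was at 0 in all 12 samples. In the files 92.8% of the counts lie on genes with 1 transcript, although these make up 63.0% of the genes, as happens when reads shared by several transcripts of a gene are not counted. NM_001006946 differs from the other by the exon at its start, 172 bases of 5′UTR at chr2:20425023-20425194 (GRCh37, minus strand). If shared reads were left out, the SDC1 count comes from these 172 bases, and the 8mer begins 1901 spliced bases downstream of them. The GENCODE transcript matched to NM_002997 has 46 bases of its own, fewer than the read length given in the study's methods. It has 3165 bases, against 3201 listed for NM_002997, so the part of its own in NM_002997 may be longer. With so short a part to count, the 0 of NM_002997 does not show that this transcript was absent. A change in all SDC1 RNA and a change in the use of the start exon of NM_001006946 cannot be told apart here. GPC3, with 4 listed transcripts, has the same limit, and the other 8 members have 1 transcript each.

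**Figure D2:**
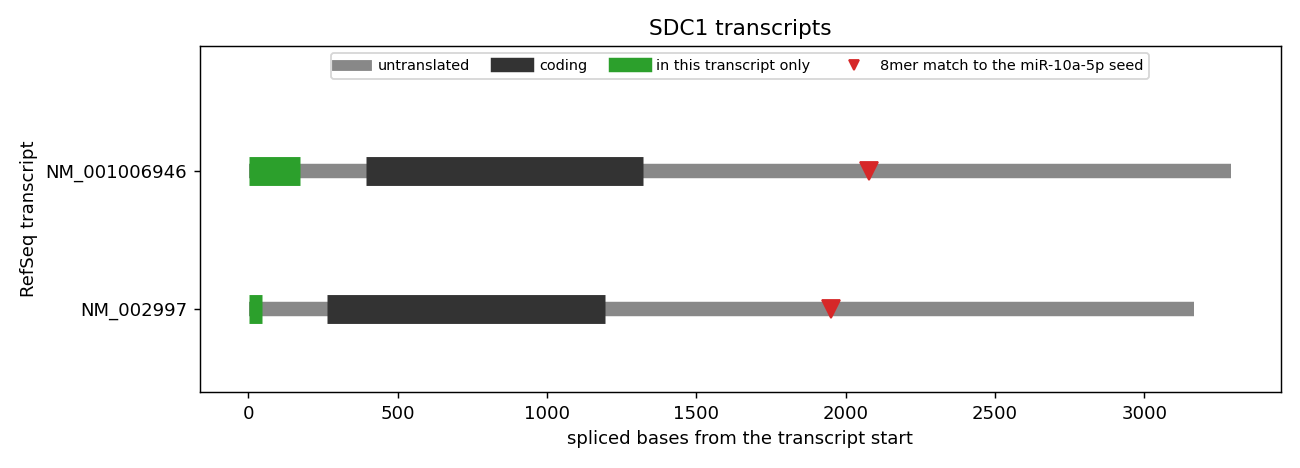
The 2 SDC1 transcripts, drawn from the matched GENCODE transcripts in spliced bases from the start of each (horizontal axis), with coding and untranslated parts, the part found in that transcript only and the 8mer match. The part found only in NM_001006946 spans bases 1 to 172, and the match begins at base 2074 of the same transcript.

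Total counts per sample were between 10545487 and 14165426, and the totals of the control samples exceeded those of the doxycycline samples of the same vector. A count of 3 was worth 0.212 to 0.284 CPM (counts scaled to the sample's total count), which is the detection floor used here. The precursor counts matched the labels. The MIR10A precursor was at 723.7 ± 10.8 CPM with miR-10a doxycycline and 0.999 ± 0.363 in its control (SD, n = 3 each). MIR10B was at 2619 ± 67.5 CPM with miR-10b doxycycline and 3.55 ± 0.807 in its control. Mature miR-10a and miR-10b were not measured by this poly-A sequencing. Neural progenitor markers summed to 10503 to 12169 CPM in all samples, and floor plate markers to 2884 to 4380 CPM. The largest parts were NES and VIM in the first (means of 4726 and 4542 CPM) and NTN1 in the second (2011 CPM), and SOX1 was at 35.7 CPM. Of the 7 pluripotent stem cell markers 5 had a mean of 3 counts or less, 4 of them with several listed transcripts. DPPA4, a marker of that list with 1 transcript, had a mean of 1551 counts. PAX6, a progenitor marker with 7 listed transcripts, had a mean of 0.167 counts, and genes with several transcripts have the limit described for SDC1. The second replicate of miR-10b doxycycline stood apart from its group, with a chi-square per degree of freedom of 3.17 and 4.11 against the other two, where all other replicate pairs were between 1.22 and 1.93. Values without it are given for SDC1, for the members called with miR-10b and for the named heparan sulfate genes. The labels do not say whether replicates were separate cultures, so p-values measure the spread between these samples, which may be technical. In such bulk cultures, fewer cells of a type and less RNA per cell cannot be told apart.

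The 8 members with 1 transcript can be compared in level, and for these CPM was divided by transcript length in kilobases. In the miR-10a controls SDC2 was the highest at 153 ± 3.46 CPM per kilobase (SD, n = 3), followed by GPC2 at 118 ± 1.28 and SDC3 at 77.2 ± 0.483. GPC4 at 70.1 ± 1.05 and GPC1 at 69.1 ± 0.266 overlapped. GPC6 at 28.2 ± 0.248 and SDC4 at 18.3 ± 0.172 were lower, and GPC5 was at 1.17 ± 0.175. In the miR-10b controls GPC4 stood at 116 ± 3.13 CPM per kilobase, next to GPC2 at 125 ± 6.07, and above GPC1 at 72.9 ± 0.86 and SDC3 at 72.3 ± 0.568, which overlapped. GPC3 was at 0 to 3 counts in all 12 samples, which is at or under the floor, so it was not tested and no fold is given. SDC1 had 6 to 27 counts.

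**Figure D3:**
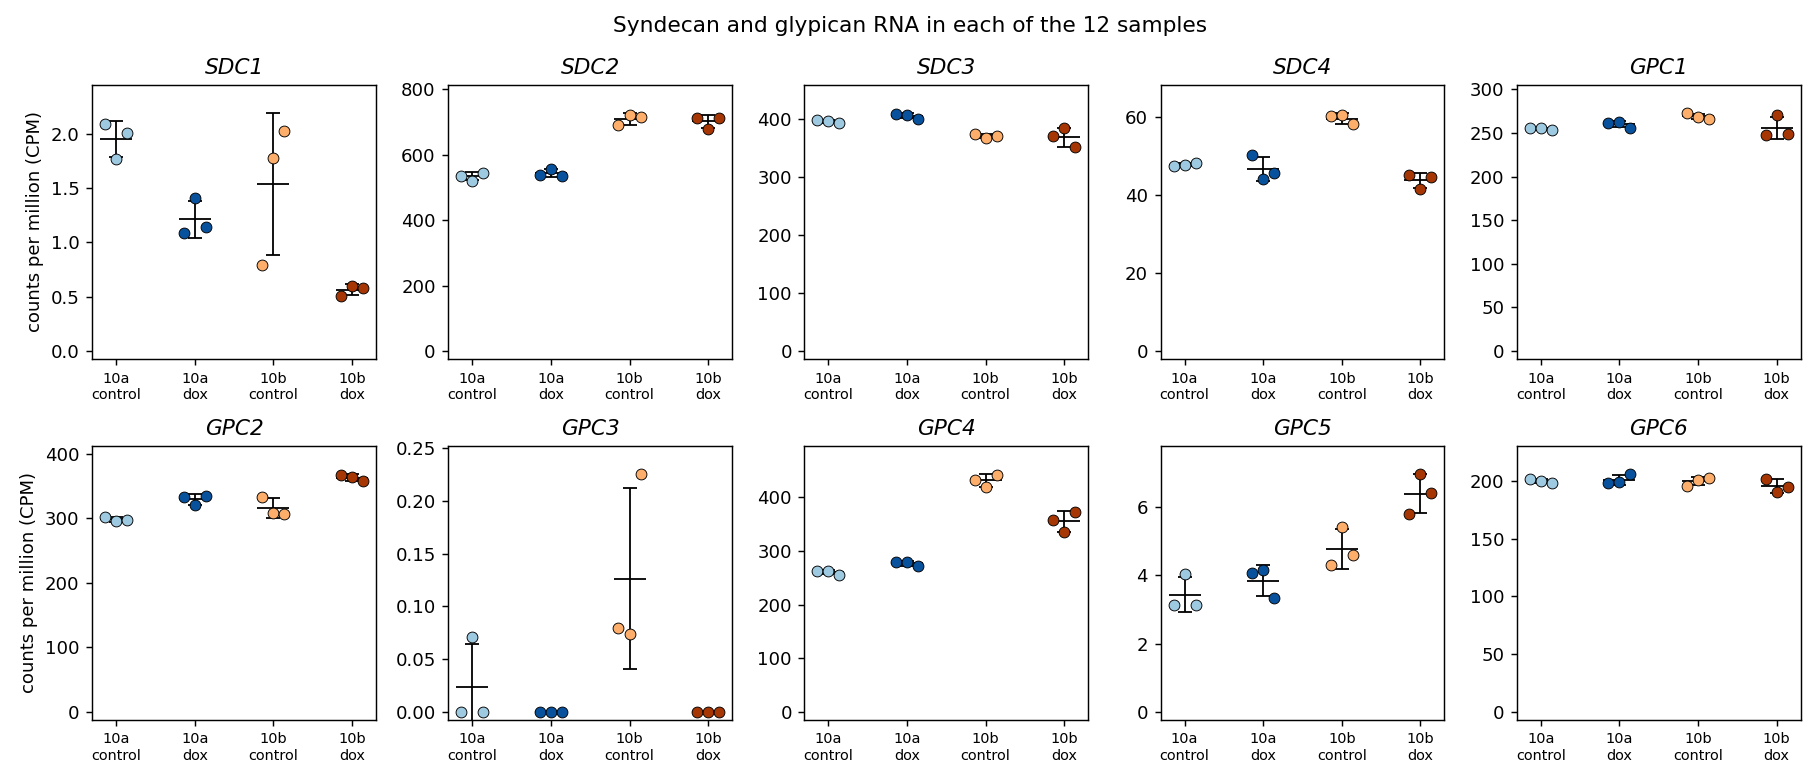
CPM (vertical axes, from 0) of each gene in the 3 samples of each group (points), with the mean (dash) and SD (bars). SDC1 is lower with doxycycline in both vectors, GPC2 is higher in both, and SDC4 and GPC4 are lower with doxycycline in miR-10b cells, with no overlap of the points.

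SDC1, the syndecan of epithelia, had the fewest counts of the tested members and the biggest fold difference. In the miR-10a controls it was at 2.09, 1.76 and 2.00 CPM (26, 25 and 25 counts) and with miR-10a doxycycline at 1.09, 1.41 and 1.14 CPM (12, 17 and 12 counts). In the miR-10b controls it was at 0.794, 1.78 and 2.03 CPM (10, 24 and 27 counts) and with doxycycline at 0.505, 0.601 and 0.582 CPM (6, 7 and 7 counts). Every doxycycline sample lay below every control of the same vector, with the first miR-10b control close to the treated samples. The fitted log2 fold change of SDC1 was -0.67 (SE 0.28) with miR-10a, -1.44 (SE 0.35) with miR-10b and -1.06 (SE 0.22) over both. Without the first miR-10b control the value with miR-10b was -1.74, and without the third it was -1.20. It was -1.49 without the second miR-10b doxycycline sample. A share of 2.95% of the 11451 tested genes also had every doxycycline sample below every control in both vectors. The mean of SDC1 was above 10 counts in 3 of the 4 groups and was 6.67 with miR-10b doxycycline. Markers of epithelium and surface ectoderm, a tissue where SDC1 is abundant, summed to between 5.71 and 7.89 CPM in all 12 samples, and of their 7 genes 5 had a mean of 3 counts or less. Of these 5, KRT8, KRT18, TP63 and TFAP2A have several listed transcripts, so reads that were not counted may be missing from them, and CDH1, with 1 transcript, had a mean of 2.92 counts. EPCAM, also with 1 transcript, had 53.8 counts. Neither of the 2 epithelial markers that could be tested passed the edgeR threshold with either vector, and 0 had an unadjusted p under 0.05 or a DESeq2 call.

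The other 8 tested members were compared between doxycycline and control with edgeR's quasi-likelihood test across 11451 genes with a mean above 10 counts, with Benjamini-Hochberg adjusted p under 0.05 as the threshold. With miR-10a, 1 of the 8 was called (GPC2), where 1.21% of all tested genes were called. That share was 0.681% without the first miR-10a doxycycline sample and 2.34% without the second miR-10b doxycycline sample, and leaving out replicate 1 or 3 of the miR-10a controls also moved it by over 1.5 times. With miR-10b, 4 of the 8 were called (SDC4, GPC2, GPC4 and GPC5), where 15.3% of all tested genes were called. Over both vectors, 3 of the 8 were called (SDC4, GPC2 and GPC4), against 13.9% of all tested genes. Calls were more common among abundant genes. Among genes with a mean above 1000 counts, 30.1% were called with miR-10b and 28% over both vectors, and 2 of the 6 members in that range, GPC2 and GPC4, were called in each. That share is near the background. With miR-10a, 3.08% of the genes in that range were called, and 1 of the 6 members (GPC2).

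**Figure D4:**
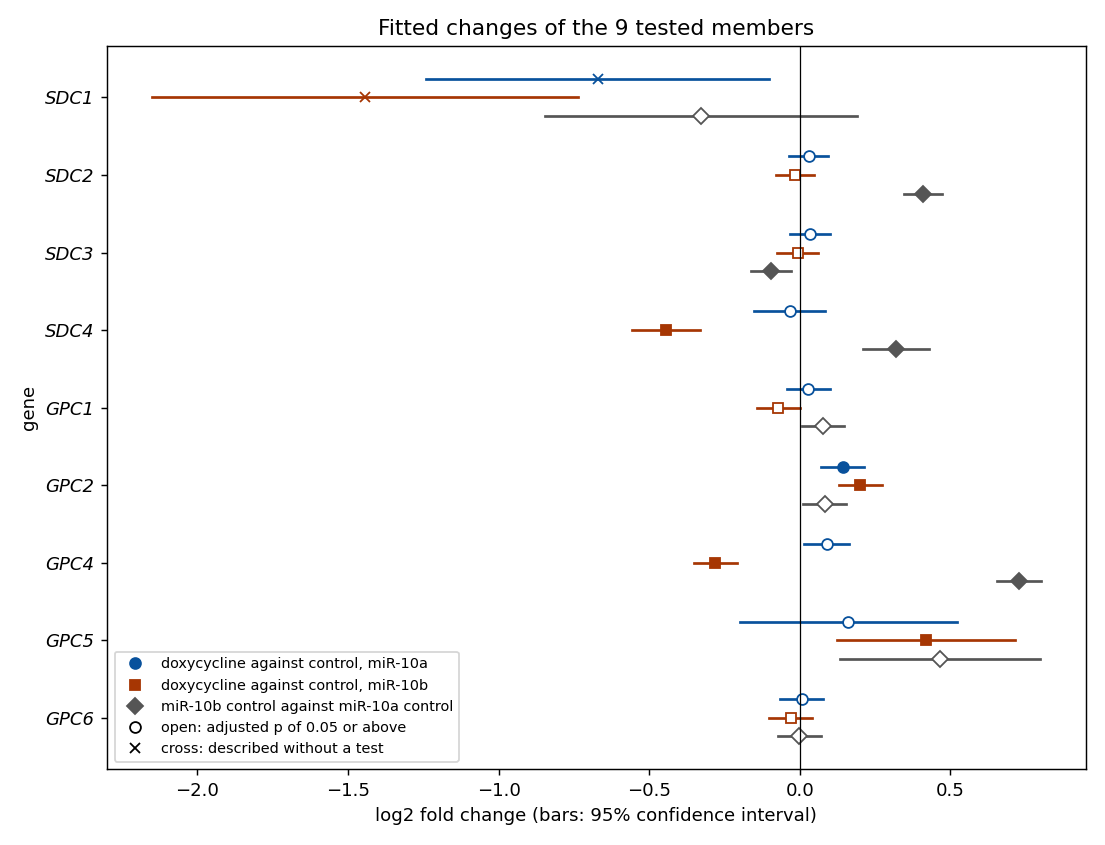
Fitted log2 fold changes (horizontal axis) of the 9 tested genes with 95% confidence intervals, for doxycycline against control with each vector and for the miR-10b against the miR-10a controls. Filled symbols passed the adjusted threshold, open ones did not, and crosses mark SDC1 values that carry no test. The bars at the crosses describe the fit and are not a test against 0, since the families were taken up because of these values. GPC2 lies right of 0 with both vectors, while GPC4 and SDC4 lie left of it with miR-10b and right of it in the comparison of controls.

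Among the syndecans, SDC4 fell with miR-10b. SDC4 is the widely expressed syndecan of focal adhesions, and its gene lies at chr20:43953928-43977064 (GRCh37, minus strand). It was at 60.1, 60.4 and 58.0 CPM in the miR-10b controls and at 45.1, 41.4 and 44.6 CPM with doxycycline. The groups did not overlap, as in 28.7% of all tested genes with miR-10b. The log2 fold change was -0.44 (SE 0.056, edgeR adjusted p = 2.3e-07), a change of -26.5%. With miR-10a, SDC4 was at 47.4, 47.5 and 48.2 CPM in the controls and at 50.2, 44.1 and 45.6 CPM with doxycycline, and these overlapped (log2 fold change -0.03, SE 0.057, 95% interval -0.15 to 0.08, edgeR adjusted p = 0.891). The difference between the vectors' doxycycline effects was itself -0.41 (SE 0.080, edgeR adjusted p = 0.0021), in a test that called 1.96% of all tested genes (1.22% without the second miR-10a control and 2.97% without the third miR-10b doxycycline sample). Over both vectors SDC4 was at -0.24, and the exact permutation test within vectors gave p = 0.035, two-sided. Without the second miR-10b doxycycline replicate the effect with miR-10b was -0.41 and the difference between vectors -0.37. All 3 miR-10b doxycycline samples lay below the miR-10a controls as well.

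SDC2 and SDC3, the abundant syndecans of mesenchymal and of neural cells, did not pass the threshold with either vector. SDC2 was at 533 ± 12.1 and 544 ± 11.8 CPM in miR-10a control and doxycycline, and at 709 ± 17.3 and 701 ± 19.0 CPM in miR-10b control and doxycycline (SD, n = 3 each). The 95% intervals of its log2 fold change were -0.04 to 0.09 with miR-10a and -0.08 to 0.05 with miR-10b. SDC3 was at 396 ± 2.47 and 405 ± 4.06 CPM with miR-10a, and at 370.2 ± 2.91 and 368 ± 16.4 CPM with miR-10b, in the same order. Its intervals were -0.03 to 0.10 and -0.07 to 0.06. In miR-10a cells the 3 doxycycline samples of SDC3, at 400.2 to 408 CPM, lay just above the controls, at 393 to 398 CPM. With miR-10a the groups were apart in either direction in 18.2% of all tested genes.

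Among the glypicans, GPC2 rose with both vectors. GPC2 is a glypican of the developing nervous system, and its gene lies at chr7:99767229-99775004 (GRCh37, minus strand). In the miR-10a controls it was at 302, 296 and 298 CPM, and with doxycycline at 334, 319.98 and 334 CPM. In the miR-10b controls it was at 334, 308 and 306 CPM, and with doxycycline at 368, 364 and 357 CPM. Every doxycycline sample lay above every control of its vector, which held for 3.71% of all tested genes. The log2 fold change of GPC2 was 0.14 (SE 0.035, edgeR adjusted p = 0.0279) with miR-10a and 0.20 (SE 0.034, edgeR adjusted p = 5.2e-05) with miR-10b, and 0.17 over both (edgeR adjusted p = 3.0e-06). The exact permutation test within vectors gave p = 0.005, two-sided, the smallest this design allows. The call with miR-10a was lost when any 1 of the miR-10a controls, or doxycycline sample 1 or 3 of miR-10a, was left out (0.13 to 0.15, edgeR adjusted p = 0.0792 to 0.182). Without the second miR-10b doxycycline sample the value with miR-10b was 0.20. The difference between vectors was 0.06 (95% interval -0.04 to 0.16) and did not pass the threshold.

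GPC4 fell with miR-10b and did not fall with miR-10a. This glypican of neural progenitors, known as a modulator of FGF, WNT and BMP signals, lies at chrX:132434131-132549517 (GRCh37, minus strand). In miR-10b cells it was at 433, 419 and 442 CPM in the controls and fell to 357, 334 and 373 CPM with doxycycline (log2 fold change -0.28, SE 0.035, edgeR adjusted p = 2.2e-07), a change of -17.7%. In miR-10a cells it was at 263, 262 and 256 CPM in the controls and at 279, 279 and 272 CPM with doxycycline. These groups did not overlap, as in 18.2% of all tested genes with miR-10a, but the log2 fold change of 0.09 (SE 0.037, 95% interval 0.01 to 0.16) missed the threshold at an edgeR adjusted p of 0.323. The effects of the vectors differed by -0.37 (SE 0.051, edgeR adjusted p = 1.5e-05), in a test that called 4.05% of tested genes with a mean above 1000 counts. Without the second miR-10b doxycycline sample the effect with miR-10b was -0.24 and the difference -0.33. The average over both vectors, -0.10 (edgeR adjusted p = 0.0080), joins estimates of unlike sign, and the exact permutation test within vectors gave p = 0.105, two-sided. With doxycycline, GPC4 in miR-10b cells remained above all miR-10a samples.

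GPC5 was the scarcest tested glypican, at 35 to 81 counts. It was at 4.29, 5.41 and 4.58 CPM in the miR-10b controls and at 5.81, 6.95 and 6.40 CPM with doxycycline. The groups did not overlap, as in 28.7% of all tested genes with miR-10b, and the log2 fold change was 0.42 (SE 0.15, edgeR adjusted p = 0.0462). This call was lost when any 1 of 7 samples was left out: replicate 1 or 3 of the miR-10b controls, 2 or 3 of miR-10b doxycycline, 1 or 3 of the miR-10a controls, or 1 of miR-10a doxycycline (0.35 to 0.42, edgeR adjusted p = 0.0506 to 0.164). The highest of these p-values, with a log2 fold change of 0.36, was without replicate 2 of miR-10b doxycycline. It was also lost in 4 of 8 other settings that gave one, with edgeR adjusted p between 0.0337 and 0.0785 over those 8. With miR-10a, GPC5 was at 3.43 ± 0.516 CPM in the controls and 3.84 ± 0.456 with doxycycline (SD, n = 3 each), and the groups overlapped (0.16, SE 0.18).

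GPC1 and GPC6 did not pass the threshold with either vector. GPC1, a glypican of neurons and of tumour tissue, was at 255 ± 0.981 and 259.8 ± 3.45 CPM in miR-10a control and doxycycline, and at 269 ± 3.17 and 256 ± 13.0 CPM in miR-10b control and doxycycline (SD, n = 3 each). Its log2 fold change with miR-10b was -0.07 (SE 0.035, edgeR adjusted p = 0.177). The second doxycycline sample lay highest, at 271 CPM, and without it the value was -0.11 and passed the threshold (edgeR adjusted p = 0.014). GPC6 was between 191 and 206 CPM in all 12 samples, and its 95% intervals were -0.07 to 0.08 with miR-10a and -0.10 to 0.04 with miR-10b. GPC6 lies next to GPC5 on chromosome 13, 353124 bases apart. GPC3 lies next to GPC4 on the X chromosome, 120255 bases apart, and had 0 or 1 counts in miR-10a cells, 1, 1 and 3 in the miR-10b controls and 0 in the treated miR-10b cells.

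The control cultures of the vectors differed from each other in these families. Of 8 tested members other than SDC1, 4 were called between the miR-10b and miR-10a controls, where 14.1% of all tested genes were called. Of the 6 members with a mean above 1000 counts 3 were called (SDC2, SDC3 and GPC4), against 24.6% of all tested genes in that range. GPC4 was higher in miR-10b controls by 0.73 on the log2 scale (SE 0.036, edgeR adjusted p = 4.4e-18), or 65.7%. SDC2 was higher by 0.41 (SE 0.031, edgeR adjusted p = 7.8e-13), or 32.9%, and SDC4 by 0.32 (SE 0.054, edgeR adjusted p = 3.2e-05). The controls did not overlap for these 3 genes, as in 30.1% of all tested genes. SDC3 was lower by a small amount (-0.10, SE 0.032, edgeR adjusted p = 0.0421). The SDC3 call was lost without any 1 of the 6 control samples or the first miR-10a doxycycline sample (-0.10 to -0.09, edgeR adjusted p = 0.0581 to 0.135), and in 4 of 8 other settings. GPC5 was at 0.47 (SE 0.16, edgeR adjusted p = 0.0515), and passed the threshold in 4 of 8 other settings and without replicate 2 of the miR-10a controls, 1 of the miR-10b controls or 2 of miR-10b doxycycline (0.47 to 0.61, edgeR adjusted p = 0.0312 to 0.0478). SDC1 was at -0.33 (SE 0.25, edgeR adjusted p = 0.474), and this value rested on single samples: it was -0.03 without the first miR-10b control and -0.58 without the third, neither past the threshold. GPC1, GPC2 and GPC6 did not pass it.

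The miR-10b controls of this comparison are also those against which the miR-10b doxycycline samples were set, so the high control values of SDC4 and GPC4 enter both comparisons. Cell type markers also differed between the controls. Of the 8 floor plate markers 7 were higher in miR-10b controls, and their sum was 4211 to 4235 CPM against 2884 to 2961 CPM. Of the 7 mesenchyme and fibroblast markers 4 were higher and 0 lower, and their sum was 370.4 to 393 CPM in the miR-10b controls, 309.1 to 332 with miR-10b doxycycline and 161 to 182 in all miR-10a samples. With miR-10b doxycycline 2 of these 7 fell. Of the mesenchyme and fibroblast markers 6 of 7 could be tested, and of the neural progenitor markers 9 of 10. Fewer could be in other lists: 2 of 7 for pluripotent stem cell, 4 of 7 for neuron and 1 of 5 for neural crest. For epithelium 2 of 7 were tested, for endothelium 2 of 4 and for endoderm 1 of 4, so a 0 there says little of the cell type. Of the other marker lists, neural progenitor had 3 higher and 2 lower in the miR-10b controls, pluripotent stem cell 0 and 1, endoderm 1 and 0, and neuron, neural crest, epithelium and endothelium 0. With miR-10b doxycycline, neural progenitor had 1 higher and 3 lower, floor plate 0 and 1, neuron 1 and 0, neural crest 1 and 0 and endoderm 0 and 1, and the rest 0. Over all lists, 18 of 35 tested markers were called between the controls (51.4%, against 14.1% of all tested genes). With miR-10b doxycycline 10 of the 35 were called (28.6%, against 15.3%). In the mesenchyme and fibroblast list COL3A1, TWIST1 and COL1A1, with 1 transcript each, had means of 1015, 883 and 816 counts, and DCN, with 6 listed transcripts, had 0.167 counts. The part of these cell types in the SDC2, SDC4 and GPC4 values was not tested.

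Of 43 tested genes that build, modify, shed or carry heparan sulfate or bind syndecan tails, 8 were called with miR-10b (18.6%, against 15.3% of all tested genes), 7 over both vectors (16.3% against 13.9%) and 12 between the controls (27.9% against 14.1%). DESeq2 called 6, 4 and 8 of them, and 1306, 1199 and 1234 of all 11451 tested genes. With miR-10a, 0 genes passed the edgeR threshold in any of the 5 lists: linker and chain polymerization enzymes (10 tested of 11), modifying enzymes (16 of 21), shedding and breakdown (9 of 15), other heparan sulfate proteoglycans (3 of 9) and cytoplasmic partners of syndecans (5 of 10). At an unadjusted edgeR p under 0.05 there were 9 of the 43. DESeq2 called 0 of them, and 125 of all 11451 tested genes. The share of all tested genes at the unadjusted cut is not given here, so the 9 are not set against a background. With miR-10b, the lists had 0 higher and 2 lower, 2 higher and 2 lower, 0 called, 0 called, and 0 higher and 2 lower, in that order. Over both vectors they had 1 higher and 2 lower, 2 higher and 0 lower, 0 called, 0 called, and 0 higher and 2 lower. Of the 9 shedding and breakdown genes, 1 with miR-10b and 3 over both vectors had an unadjusted edgeR p under 0.05, and DESeq2 called 0 in both. These unadjusted counts have no background share either. The median log2 fold changes over both vectors were 0.004, 0.08, 0.06, 0.05 and 0.004, against 0.01 over all tested genes.

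Among the chain enzymes, GLCE, the epimerase that turns glucuronic into iduronic acid, was at 43.1 ± 2.02 CPM in miR-10a controls and 48.7 ± 1.30 with doxycycline, and at 42.3 ± 1.62 CPM in miR-10b controls and 51.4 ± 3.96 with doxycycline (SD, n = 3 each). Its log2 fold change over both was 0.23 (SE 0.043, edgeR adjusted p = 0.0002). NDST2, an N-deacetylase and N-sulfotransferase, was at 0.11 over both (edgeR adjusted p = 0.0285), a call that was lost under DESeq2 (adjusted p = 0.108), in 2 other settings and in 7 of 12 fits with a sample left out: replicate 2 or 3 of miR-10a doxycycline, 1 or 2 of the miR-10a controls, 1 of miR-10b doxycycline, or 2 or 3 of the miR-10b controls. B4GALT7, a galactosyltransferase of the linker, was at 0.12 (edgeR adjusted p = 0.0354), and its call was lost under DESeq2 (adjusted p = 0.135), in 4 other settings and in 7 of 12 fits: without replicate 2 or 3 of miR-10a doxycycline, 2 or 3 of the miR-10a controls, 2 of miR-10b doxycycline, or 1 or 2 of the miR-10b controls. FAM20B, the kinase that phosphorylates the linker xylose, was at -0.10 over both (edgeR adjusted p = 0.0062), an average that joins estimates of unlike sign. With miR-10a it was at 0.02 (edgeR adjusted p = 0.870), with 221 ± 6.86 CPM in controls and 225 ± 4.55 with doxycycline. With miR-10b it was at -0.22 (edgeR adjusted p = 2.2e-05), with 229.8 ± 1.30 CPM in controls and 197 ± 7.12 with doxycycline. Its doxycycline effects differed between vectors by -0.25 (SE 0.051, edgeR adjusted p = 0.0037), as those of SDC4 and GPC4 did. This difference was -0.22 without the second miR-10b doxycycline sample. EXTL2, a transferase that acts on the linker, had 1.32 to 2.68 CPM in all samples of the miR-10a groups and was at -0.53 over both (edgeR adjusted p = 0.0498) with a mean of 21.6 counts. DESeq2 gave it no adjusted p, and the call was lost in 3 other settings and in 10 of 12 fits, all but those without replicate 3 of the miR-10a controls or 1 of miR-10b doxycycline. The calls of GLCE and FAM20B over both vectors were kept in all 12 fits and 8 other settings. Leaving out the second miR-10b doxycycline sample gave values over both of 0.22 for GLCE, 0.10 for NDST2, 0.10 for B4GALT7, -0.08 for FAM20B and -0.43 for EXTL2.

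Outside the chain enzymes, the syndecan partners TIAM1, a RAC activator, and MSN, an ezrin-family linker to actin, were lower over both vectors. They were at -0.20 (SE 0.031, edgeR adjusted p = 1.8e-05) and -0.08 (SE 0.023, edgeR adjusted p = 0.0112). With miR-10a neither passed the threshold, with TIAM1 at -0.12 (edgeR adjusted p = 0.238) and MSN at -0.01 (edgeR adjusted p = 0.956). With miR-10b both did, with TIAM1 at -0.28 (edgeR adjusted p = 2.9e-05) and MSN at -0.16 (edgeR adjusted p = 0.0006). Over both vectors they were at -0.19 and -0.09 without the second miR-10b doxycycline sample. The TIAM1 call over both was kept in all 12 fits with a sample left out, and the MSN call was lost in 1, without the second miR-10b control (highest edgeR adjusted p = 0.0531). TIAM1 was at 126 ± 2.65 CPM in miR-10a controls and 116 ± 4.16 with doxycycline, and at 95.4 ± 4.70 CPM in miR-10b controls and 78.7 ± 1.25 with doxycycline (SD, n = 3 each). Between the controls, the 5 lists had 2 higher and 0 lower, 1 higher and 4 lower, 2 higher and 0 lower, 1 higher and 0 lower, and 0 higher and 2 lower, in the same order.

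**Figure D5:**
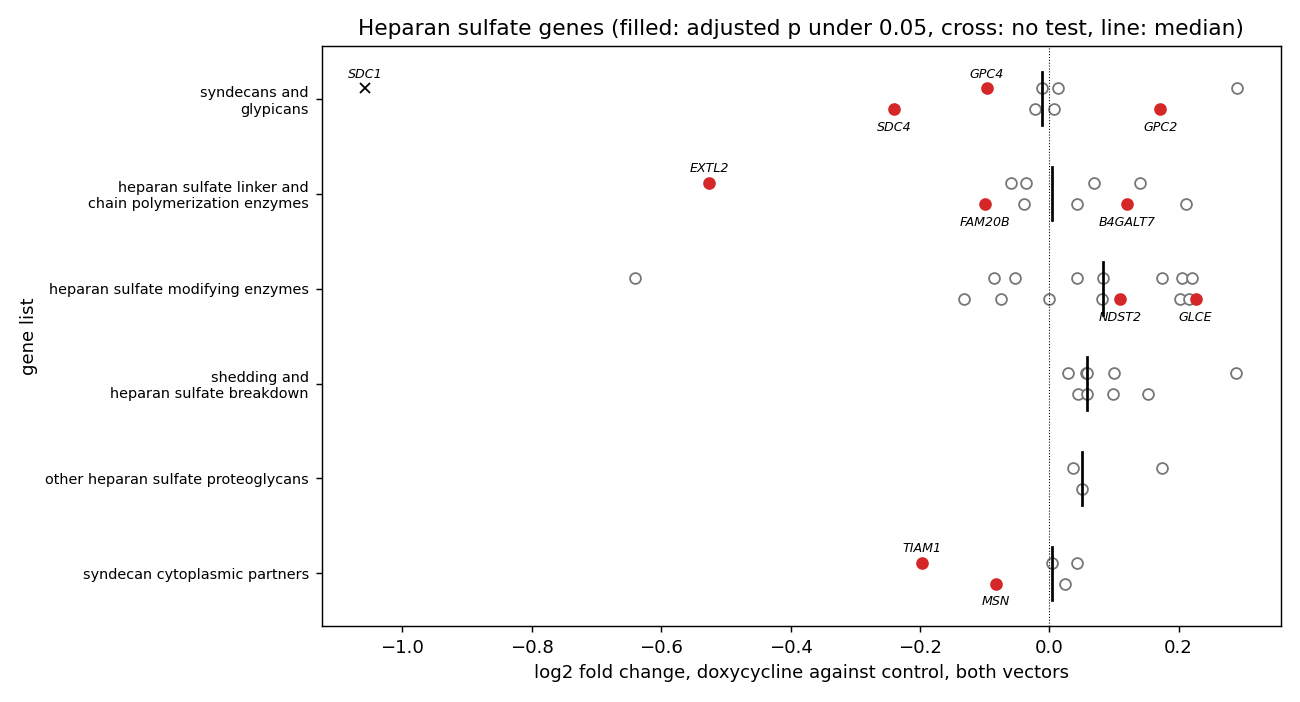
Log2 fold changes over both vectors (horizontal axis) for the tested members of the 2 families and of each heparan sulfate list, with a line at each list's median. Filled points passed the adjusted threshold over all genes, and the cross is SDC1, which carries no test. The list medians lie between -0.01 and 0.08.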

How the data were processed

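Poly-A RNA was sequenced from 12 samples, 4 groups of 3. According to the labels and the study's methods, the authors aligned single-end reads to hg19 and counted them on RefSeq transcripts. The submitters' processing notes name STAR, featureCounts and Subread, with versions not given in the sources used here. The deposited values are raw counts, not normalized. Repeated rows of a transcript were dropped, which left 48101 transcripts of 25718 genes, and each gene was taken as its transcript with the highest mean count. Each sample was scaled to its total count, since the study scaled to total reads. edgeR 4.0.16 (R 4.3.3) fitted 4 group means in 1 quasi-likelihood model to the 11451 genes with a mean above 10 counts, with Benjamini-Hochberg adjustment over all of them and a threshold of 0.05. The comparisons were doxycycline against control with each vector and over both, the difference of these effects, and the controls of the vectors. Exact two-sided permutation tests of CPM cannot go below p = 0.1 for 3 against 3 samples, or 0.005 within vectors. Intervals are 95% and floors of 3 counts cover counting error only. Alternatives were TMM, DESeq2 1.42.0, no filter or a mean above 50 counts, replicate blocks, the 6 compared samples alone, counts summed over transcripts, thinned counts, and leaving out each sample.

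Members and lists were chosen with earlier results of these data known. Named genes are all 10 members, the miR-10 precursors, per heparan sulfate list up to 5 genes past the threshold over both vectors with the largest changes (1 gene of the shedding and breakdown list is not reported here and not counted in it), and the genes nearest in pattern to SDC1 (5) and SDC2 (3). Marker lists covered neural progenitor, floor plate, pluripotent stem cell, neuron, neural crest, epithelium and surface ectoderm, mesenchyme and fibroblast, endothelium, and endoderm. Seed matches were searched in GENCODE 3′UTRs on GRCh37.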

Additional observations from a re-analysis of the deposited data

Results flagged for a closer look

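The doxycycline effect of GPC4 differed between the vectors in a test of the difference itself: it was -0.37 on the log2 scale for miR-10b minus miR-10a (SE 0.051, edgeR quasi-likelihood adjusted p = 1.5e-05), with every miR-10a doxycycline sample above and every miR-10b doxycycline sample below the controls of its vector. The effect of SDC4 also differed between them, by -0.41 (SE 0.080, edgeR quasi-likelihood adjusted p = 0.0021), with all 3 miR-10b doxycycline samples below their controls and the miR-10a groups overlapping. Groups were apart in either direction in 18.2% of all tested genes with miR-10a and in 28.7% with miR-10b. The MIR10B precursor reached 2619 CPM and the MIR10A precursor 723.7 CPM in their doxycycline samples. The vectors and the cultures that held them cannot be told apart.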

How the results depend on the processing

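Of the 8 tested members other than SDC1, 4 were called with miR-10b (15.3% of all tested genes) and 3 with DESeq2, which gave no adjusted p for SDC1 or GPC5. With miR-10b DESeq2 called 1306 of all 11451 tested genes, where edgeR called 1756. The DESeq2 values for SDC1 were -1.47 with miR-10b and -1.08 over both. With miR-10a, leaving out a sample gave 0 to 1 members. A mean above 50 counts left SDC1 untested. Values close to 0 changed sign: GPC6 in the controls was 0.0055 under TMM, 0.0046 under DESeq2, 0.0041 when thinned and -0.0123 to 0.0121 with a sample left out. GPC6 with miR-10a was -0.0019 (TMM), -0.0045 (DESeq2) and -0.0112 to 0.0157 with a sample left out. SDC2 over both vectors was -0.0051 (TMM), -0.0085 (DESeq2) and -0.0026 to 0.0184, and SDC3 over both was -0.0028 (DESeq2) and -0.0026 to 0.0294. With a sample left out, SDC2 with miR-10b was -0.0345 to 0.0074, SDC3 with miR-10b -0.0388 to 0.0252 and SDC4 with miR-10a -0.0898 to 0.0063. The cause of these changes was not tested. Over all genes, calls with miR-10a numbered 139, 272 in the 6 compared samples alone and 78 to 268 with a sample left out. The test of the difference between vectors made 224 calls, 343 with no filter, 140 without replicate 2 of the miR-10a controls and 340 without replicate 3 of miR-10b doxycycline. The share of calls over both vectors that were higher was 55.2%, 43.8% under TMM and 38.3% under DESeq2.

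Replicate numbers did not mark shared cultures in the labels, and samples with the same number did not deviate together (mean correlation -0.0057, against 0.0029 for different numbers). With the replicate block, members other than SDC1 called remained 1 (miR-10a), 4 (miR-10b), 3 (both vectors) and 2 (difference), and became 5 in the controls, where GPC5 was added to 4. Over all genes the block that spans the groups moved the calls with miR-10a from 139 to 166 and with miR-10b from 1756 to 1826. It moved those over both vectors from 1590 to 1680, of the difference from 224 to 274 and in the controls from 1618 to 1689. Using all annotated 3′UTRs gave the same best match for each member. SDC1 and GPC5 rest on few counts, and depth limits what can be said of them.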

Other observations

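Summed over the members with 1 transcript, glypican RNA was at 1017 ± 8.36 CPM in miR-10a controls and 1071 ± 5.83 with doxycycline, and at 1221 ± 18.8 in miR-10b controls and 1176 ± 7.54 with doxycycline (SD, n = 3 each). Syndecan RNA was at 977 ± 11.8, 996 ± 13.6, 1138 ± 14.3 and 1113 ± 12.1 CPM in the same order.

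The genes whose 3 fitted log2 fold changes (each doxycycline effect, and the controls against each other) lay closest to those of SDC1 among 11451 tested genes were SLITRK1 (Euclidean distance 0.482), GAPVD1 (0.559), GJB7 (0.576), HBQ1 (0.603) and ACKR3 (0.670). All but ACKR3, which had a mean of 805 counts, had means of 12.5 to 32.2 counts. For SDC2, the most abundant member, they were LRRC9 (0.032), AK9 (0.037) and TM9SF1 (0.049), with log2 fold changes between the controls of 0.40, 0.38 and 0.45. These distances cover 12 samples that all 3 values share, and are a description.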
